A study of Mus musculus with 4 samples.

Results

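Klk6, Adamts4, Cpm, Enpp6 and Cemip2 encode enzymes that oligodendrocytes secrete or hold on their surface, where they cut proteins, phosphodiesters or hyaluronan outside the cell. They were measured in mouse spinal cord at postnatal day 14 in mutants with both copies of the transcription factor gene Sip1, now named Zeb2, floxed for deletion by Olig1-Cre, and in controls. The 5 genes were taken by symbol from the authors' deposited table of changed transcripts, in which Cemip2 stands under its older symbol Tmem2. In that table the 5 genes had 1 transcript cluster each, the unit in which this array type reports a transcript. They are 5 of the 369 genes that the table named and of the 35557 clusters on the arrays. The table had been filtered on the fold change between these same arrays, so the presence of a gene in it, and its direction, are not independent of the comparison below.

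The mutant cords, called Sip1 cKO, carried the genotype Sip1c/c;Olig1-Cre (2 arrays). The control cords came from littermates of the genotype Sip1c/+;Olig1-Cre (2 arrays). All animals were of a mixed c57.129 background and all carried Olig1-Cre, in which the oligodendrocyte lineage gene Olig1 drives the recombinase, so the controls too had the Cre and 1 floxed copy of Sip1. Whole cord was used, and in such bulk tissue fewer oligodendrocytes and less RNA per oligodendrocyte cannot be told apart. The values are log2 RMA values, meaning background-corrected and normalized probe intensities, so that 1 unit is a doubling. Array medians lay between 6.62 and 6.70. Zeb2 read 8.61 and 8.66 in Sip1 cKO against 10.29 and 10.47 in controls, so that each array matched its label (limma log2 change -1.75, adjusted p = 0.0144). Where its probes lie relative to the deleted part was not analysed here.

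Oligodendrocytes arise from dividing progenitors, pass through a short newly formed stage and then build and maintain myelin. Enpp6, a choline-specific glycerophosphodiesterase held on the membrane by a lipid anchor, is known as a marker of the newly formed stage in mouse brain. Cemip2, a membrane protein described as a cell surface hyaluronidase, is also known from newly formed cells. Klk6, a secreted trypsin-like serine protease, and Adamts4, a secreted metalloprotease that cleaves the large proteoglycans of brain matrix, are known from mature oligodendrocytes. Cpm is a lipid-anchored carboxypeptidase that removes single basic residues from the end of peptides, and is not assigned to either stage here.

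All 5 hydrolases were lower in Sip1 cKO cords, by 26.1-fold for Klk6, 24.9-fold for Enpp6, 17.1-fold for Adamts4, 11.5-fold for Cpm and 3.04-fold for Cemip2. For each of them both Sip1 cKO arrays lay below both control arrays, an arrangement that 25.1% of all clusters showed. All 5 passed as lower in the limma fit over all clusters at an adjusted p under 0.05, against 0.858% of all clusters and 55.3% of the genes named in the table. Since the naming had used the same contrast, the count of 5 is a description. Leaving out 1 array left 1 in a group, and not every call held then. Those calls are described at the end, beside the counts over all clusters. All 5 hydrolases stayed lower in each of these fits, with log2 changes from -1.47 for Cemip2 to -4.94 for Enpp6.

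**Figure D1:**
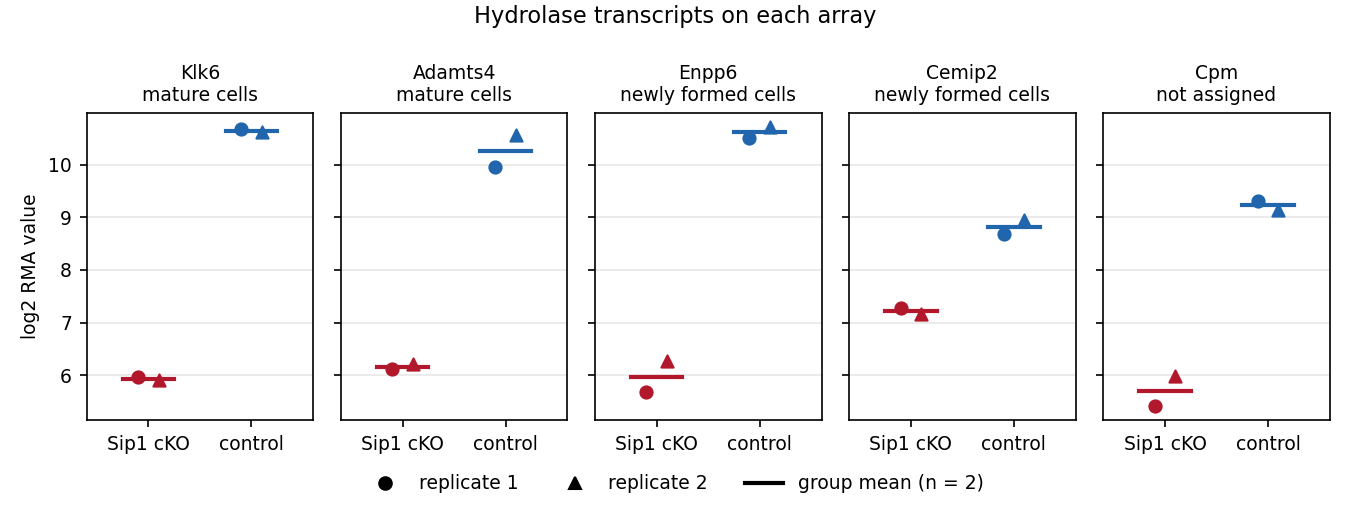
Log2 RMA value (vertical axis) of each hydrolase on the 2 Sip1 cKO arrays (red) and the 2 control arrays (blue), with circles for replicate 1, triangles for replicate 2 and bars for group means. The Sip1 cKO arrays lie below the control arrays in all 5 panels, with the narrowest space between groups for Cemip2, 1.41 on the log2 scale.

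Klk6 read 5.96 and 5.90 in Sip1 cKO cords, against 10.67 and 10.61 in control cords. The arrays of a group stood within 0.06 of each other in both genotypes, the closest replicates of the 5 genes. The means were 5.93 ± 0.04 in Sip1 cKO and 10.64 ± 0.04 in controls (SD, n = 2 each). The log2 change was -4.71 ± 0.09 (SE; limma, adjusted p = 0.00256). This was the largest change of the 5 and the eighth lowest among the 369 named genes. Left-out arrays moved it only between -4.74 and -4.68. On a linear scale, as a ratio of geometric means, the Sip1 cKO value was 3.82% of the control value.

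Adamts4 read 6.12 and 6.21 in Sip1 cKO cords, against 9.96 and 10.56 in control cords. Here the spread lay in the controls, whose 2 arrays stood 0.60 apart while the Sip1 cKO arrays stood 0.09 apart. A control gap that wide was larger than that of 94.7% of all clusters. Wide control gaps were frequent among the named genes, of which 83 of 369 had one over 0.5 and 303 read higher in control replicate 2, with a median gap of 0.27 against 0.15 over all clusters. The log2 change was -4.10 ± 0.22 (SE; limma, adjusted p = 0.0104), and it was -4.40 without control replicate 1 and -3.80 without control replicate 2. Even the lower control array was 3.75 above the higher Sip1 cKO array.

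Enpp6, the choline phosphodiesterase, read 5.67 and 6.28 in Sip1 cKO cords, against 10.51 and 10.72 in control cords. Its replicates differed most in the mutant, where the gap of 0.60 was larger than that of 96.1% of clusters. The means were 5.97 ± 0.43 in Sip1 cKO and 10.61 ± 0.14 in controls (SD, n = 2 each). This gave a log2 change of -4.64 ± 0.23 (SE; limma, adjusted p = 0.00872). Leaving out Sip1 cKO replicate 1 gave -4.34 and leaving out Sip1 cKO replicate 2 gave -4.94. The Sip1 cKO mean was 4.01% of the control mean on a linear scale.

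Cemip2, the surface hyaluronidase, read 7.28 and 7.15 in Sip1 cKO cords, against 8.69 and 8.95 in control cords. The groups did not overlap, but they stood closer than for the other 4 genes. The log2 change was -1.60 ± 0.13 (SE; limma, adjusted p = 0.0269), which left 32.9% of the control mean on a linear scale. It ranked 130th from the lowest among the 369 named genes, near their median of -1.29, whereas the other 4 hydrolases were among the lowest 22. The named genes had been kept by fold. Over all 35557 clusters, with a median of -0.01, Cemip2 ranked 182nd from the lowest. With the replicate number as a block the adjusted p was 0.0769.

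Cpm, the carboxypeptidase, read 5.41 and 5.99 in Sip1 cKO cords, against 9.31 and 9.14 in control cords. As for Enpp6, the wider gap lay between the mutant arrays, at 0.57, and the same array, Sip1 cKO replicate 2, was the higher. The log2 change was -3.53 ± 0.22 (SE; limma, adjusted p = 0.0140), and leaving out arrays in turn moved it between -3.81 and -3.24. The Sip1 cKO mean was 8.68% of the control mean.

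**Figure D2:**
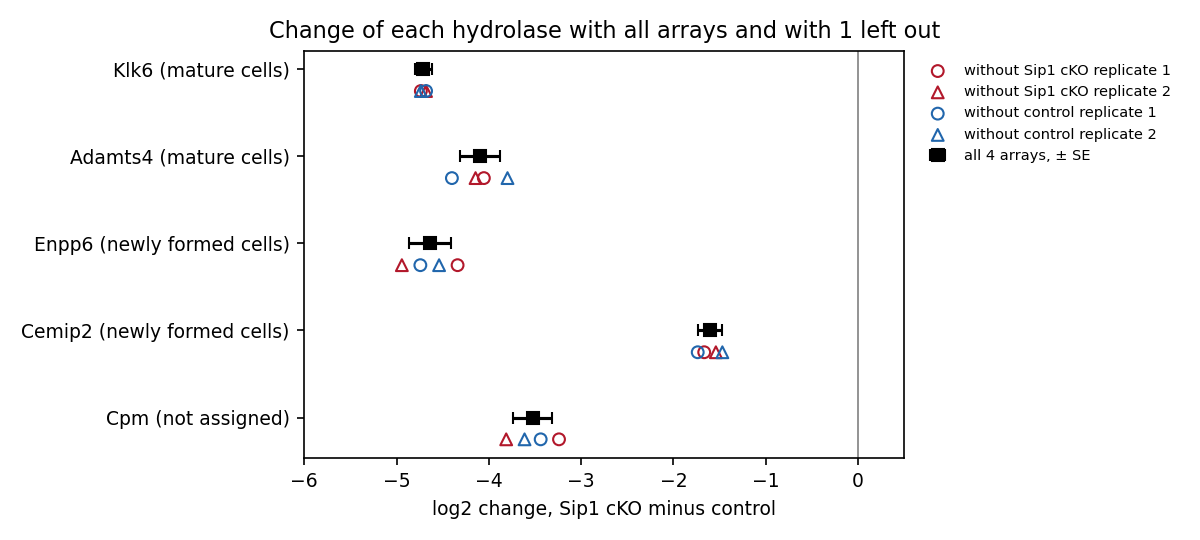
Log2 change of each hydrolase, Sip1 cKO minus control (horizontal axis), with all 4 arrays (squares, ± standard error of the limma fit) and with 1 array left out (open symbols). Klk6 and Enpp6 lie near -4.7 and Cemip2 near -1.6, and no change comes near 0 when an array is left out.

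The enzymes of newly formed cells were set against those of mature cells through their changes, since values of different probes are not on 1 scale. Enpp6 and Cemip2 changed by -3.12 on average and Klk6 and Adamts4 by -4.40, a difference of 1.28 on the log2 scale. Relative to the control arrays the difference was 1.17 in Sip1 cKO replicate 1 and 1.39 in Sip1 cKO replicate 2. The control arrays stood at 0.02 and -0.02, and the standard error from these differences was 0.11. No p is given, since the genes were grouped with their changes known.

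The difference rested on Cemip2. Enpp6 alone differed from the mean of Klk6 and Adamts4 by -0.24 (standard error 0.30), with -0.53 and 0.06 in the Sip1 cKO arrays and 0.03 and -0.03 in the control arrays, so the groups overlapped. The changes of Enpp6 and Klk6 differed by 0.07 with a standard error of 0.35, computed from the differences on each array, and the groups overlapped. Between Enpp6 and Adamts4 the changes differed by -0.54 with a standard error of 0.33, without overlap of the groups. The mature enzymes differed as much from each other, the change of Klk6 from that of Adamts4 by -0.61 with a standard error of 0.34, again without overlap. Cemip2 changed less than Klk6 by 3.11 (standard error 0.17), less than Adamts4 by 2.50 (0.20) and less than Enpp6 by 3.04 (0.37), with the 2 Sip1 cKO arrays apart from the 2 control arrays each time. The newly formed pair thus held both the second largest and the smallest of the 5 changes. In Sip1 cKO the means of Klk6 (5.93), Enpp6 (5.97), Adamts4 (6.16) and Cpm (5.70) lay below the array medians of 6.62 to 6.70. That of Cemip2 (7.22) lay above them. How far background signal limits the size of the larger changes was not tested.

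Cpm lay between the others. Its change was smaller than that of Klk6 by 1.18 (standard error 0.32) and smaller than that of Enpp6 by 1.12 (0.19), without overlap of the groups. From Adamts4 it differed by 0.57 with a standard error of 0.46, and there the groups overlapped. Cemip2 changed less than Cpm by 1.92 (0.41).

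Wider lists of stage genes had been drawn up with earlier results of these data known. Of 24 genes of mature oligodendrocytes 23 were named. Leaving out Klk6 and Adamts4, all of the remaining 21 had negative changes and 18 passed as lower. Their median log2 change was -3.78 over the 21. Of 21 genes of newly formed oligodendrocytes 6 were named, and the 4 other than Enpp6 and Cemip2 passed as lower, with a median of -2.19. Only genes that passed the authors' fold filter on these same arrays were named, and 364 of the 369 named genes had a negative change. A negative direction thus does not set the list genes apart from the other named genes. The filter as stated was on the size of the fold, and why so few named genes rose was not tested. The medians leave out the unnamed genes, which were not analysed here. Over all named genes 55.3% passed as lower, with a median of -1.29, and over all clusters 0.858%, with a median of -0.01. Sema4d, a semaphorin of the cell surface, read 7.99 and 7.89 in Sip1 cKO cords against 10.54 and 10.65 in control cords, and Lims2, a focal adhesion adaptor, fell by 1.34 on the log2 scale. Opalin, a membrane glycoprotein of mature cells, fell by 5.40 and Tspan2, a tetraspanin, fell by 3.78. Enpp6, at -4.64, lay beyond the 4 other named genes of its own list, whose changes ran down to -2.66 for Sema4d.

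**Figure D3:**
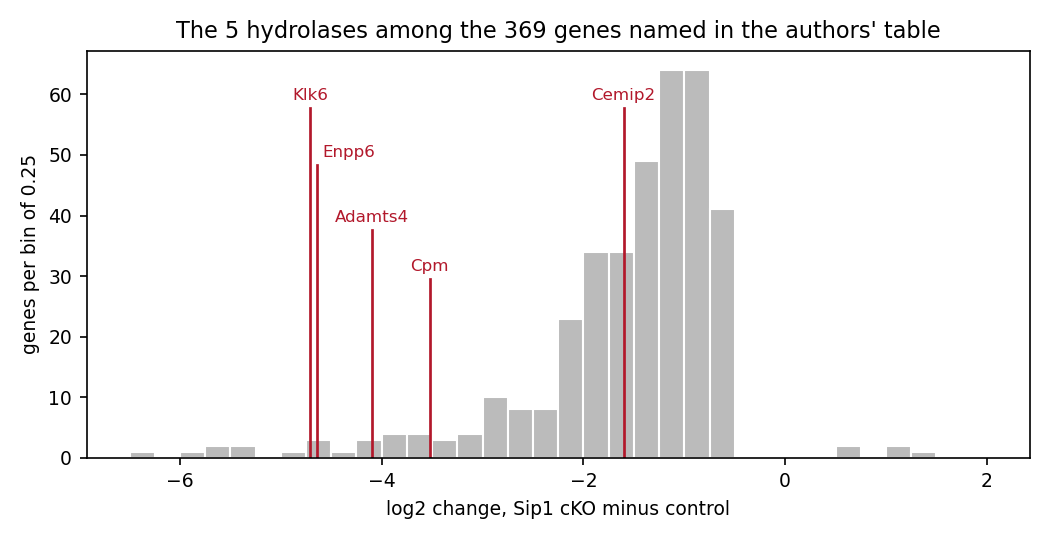
Number of named genes (vertical axis) by log2 change, Sip1 cKO minus control (horizontal axis, bins of 0.25), with the 5 hydrolases marked in red. Klk6, Enpp6, Adamts4 and Cpm stand in the sparse lower tail and Cemip2 among the bulk of the 369 genes. The empty centre around 0 is set by the fold cut-off of the authors' table.

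The arrays of the mutant group split the hydrolases by replicate. Enpp6 and Cpm read higher in Sip1 cKO replicate 2 by 0.60 and 0.57, whereas Klk6, Adamts4 and Cemip2 stood 0.06, 0.09 and 0.13 apart. Gaps over 0.5 between the Sip1 cKO arrays were found for 12 of the 369 named genes and for 5 of the 21 other named genes of the mature list. Mog, a glycoprotein on the outer face of the myelin sheath, read 5.74 and 7.35 in the Sip1 cKO arrays, and Mag, an adhesion molecule on its inner face, 6.54 and 7.92. Klk6 and Opalin, at 4.52 and 4.45, stood close together. What sets the 2 mutant arrays apart for these genes was not tested.

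Genes most like each hydrolase were sought among the named genes by the distance between values centred on each gene's own mean over the 4 arrays. Klk6 lay nearest to Mal, a proteolipid of compact myelin (distance 0.23 on the log2 scale), then to Trf, the iron carrier transferrin (0.44), and Fa2h, which hydroxylates fatty acids of myelin lipids (0.53). Enpp6 had the same 3 genes nearest, with Fa2h first at 0.15, Trf at 0.26 and Mal at 0.34. Klk6 and Enpp6 themselves were 0.51 apart, closer than Klk6 and Fa2h. Adamts4 lay nearest to Plxnb3, a semaphorin receptor (0.18), Anln, an actin- and septin-binding scaffold (0.24), and Gsn, an actin-severing protein (0.35). Plxnb3 shared its control spread, with 6.08 and 6.37 in Sip1 cKO cords against 9.93 and 10.49 in control cords.

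Cpm had no close match. Its nearest genes were Erbb3, a neuregulin receptor, Cyp2j12, a cytochrome P450, and Ugt8a, which makes the galactolipid of myelin, at 0.37 to 0.39. Cemip2 lay nearest to Bfsp2, a filament protein known from the lens (0.09), Tmeff2, a membrane protein with follistatin-like modules (0.12), and Pacs2, a sorting protein (0.14). Distances rest on 4 arrays and on genes chosen by fold, and describe these arrays only.

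Relatives and partners of the hydrolases were seldom in the table. Of 160 genes on 9 lists, covering kallikreins and other serine proteases, their inhibitors and receptors, metalloproteases, metalloprotease inhibitors and proteoglycan substrates, carboxypeptidases, ectoenzymes of phosphodiesters and nucleotides, choline use, hyaluronan and other surface hydrolases, 7 were named. Of these 4 passed as lower, 0 passed as higher and 3 did not pass. That share of lower calls is near the 55.3% over all named genes, so the count says nothing particular of these relatives. On 4 of the lists, those of protease inhibitors, metalloproteases, proteoglycan substrates and choline use, no gene was named, and the genes of those lists were not analysed here.

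Enpp2, the secreted enzyme autotaxin that makes lysophosphatidic acid and a relative of Enpp6, averaged 10.08 ± 0.12 in Sip1 cKO cords and 12.14 ± 0.28 in control cords (SD, n = 2 each). It fell by 2.06 on the log2 scale (limma, adjusted p = 0.0267). The other named relatives did not pass. Enpp4 had a log2 change of -0.96 (adjusted p = 0.0885). Enpp3 had -0.87 (adjusted p = 0.503), with 5.67 and 5.92 in Sip1 cKO cords against 5.83 and 7.50 in control cords, so that only control replicate 2 stood clearly above the rest.

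Cpd, a membrane carboxypeptidase of the secretory pathway and the only named relative of Cpm, fell by 1.34 (adjusted p = 0.0273). It read 8.79 and 8.68 in Sip1 cKO cords, against 9.98 and 10.16 in control cords. Plat, the tissue plasminogen activator, a secreted serine protease like Klk6, fell by 1.75 (adjusted p = 0.0305). Car14, a membrane carbonic anhydrase, fell by 2.62 (adjusted p = 0.0421). Hapln2, which links hyaluronan to proteoglycans at the node of Ranvier, had a log2 change of -2.94 and did not pass (adjusted p = 0.0563), with 6.42 and 6.16 in Sip1 cKO cords against 8.70 and 9.75 in control cords. The 7 changes, from -0.87 for Enpp3 to -2.94 for Hapln2, were smaller in size than those of Klk6, Enpp6, Adamts4 and Cpm. Cemip2, at -1.60, changed less than Plat, Enpp2, Car14 and Hapln2, and more than Cpd, Enpp4 and Enpp3. These comparisons were not tested.

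Markers of other cell types were looked for on 8 lists, and 7 of these, for oligodendrocyte progenitors, astrocytes, microglia and macrophages, neurons, endothelial cells, meninges and ependymal cells, held no named gene. Those cell types were not analysed here, and their part in the values of the hydrolases was not tested.

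The authors' deposited table gave smaller folds for the 5 hydrolases than the array values did. In the authors' deposited table Klk6 had a mean intensity of 76.2 in Sip1 cKO and 1564 in control, a 20.5-fold difference, against 26.1-fold here. For Enpp6 the authors' deposited table gave 20.2-fold, for Adamts4 14.5-fold, for Cpm 9.38-fold and for Cemip2 2.87-fold. On the log2 scale the changes in the authors' deposited table were 0.08 to 0.35 closer to 0, least for Cemip2 and most for Klk6. Of the 420 clusters in the authors' deposited table, 416 had a smaller change there than in the array values, and all 420 had the same direction. The order of the 5 hydrolases was the same in both sources.

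**Figure D4:**
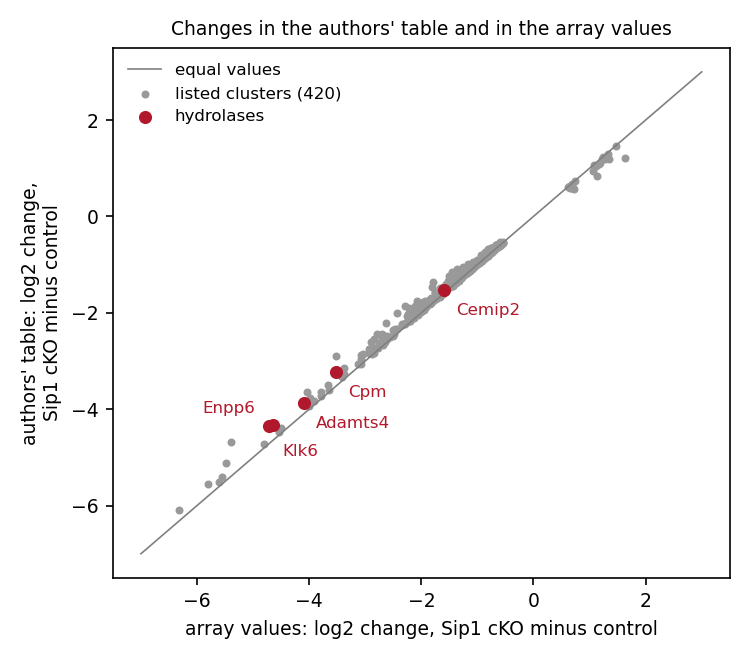
Log2 change in the authors' deposited table (vertical axis) against the log2 change in the array values (horizontal axis), both Sip1 cKO minus control, for the 420 listed clusters (grey) and the hydrolases (red), with a line of equal values. The hydrolases lie slightly above the line, at changes closer to 0 in the table.

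The bases before transcript starts are shown for the hydrolases that RefSeq's promoter table (build GRCm38.p6) holds, 3 of the 5: Klk6 with 2 starts, Enpp6 and Cpm. It holds no window for Adamts4 or Cemip2. Each window is the 250 bases before a start, and capitals mark the motifs searched on both strands. These were CACCTG, an E-box that Zeb2 can bind, its core CACCT, which lies within it, and ACAAAG, a motif of SOX factors. The Enpp6 start lies 47690 bases into the gene, so its window is not that of the outermost start.
Klk6 upstream of the outer start, chr7:43824294-43824543, + strand: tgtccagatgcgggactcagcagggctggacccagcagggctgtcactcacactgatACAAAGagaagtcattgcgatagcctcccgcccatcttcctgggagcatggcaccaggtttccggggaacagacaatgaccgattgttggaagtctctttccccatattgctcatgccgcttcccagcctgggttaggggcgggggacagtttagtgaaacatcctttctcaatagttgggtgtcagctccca
Klk6 upstream of the inner start, chr7:43825200-43825449, + strand: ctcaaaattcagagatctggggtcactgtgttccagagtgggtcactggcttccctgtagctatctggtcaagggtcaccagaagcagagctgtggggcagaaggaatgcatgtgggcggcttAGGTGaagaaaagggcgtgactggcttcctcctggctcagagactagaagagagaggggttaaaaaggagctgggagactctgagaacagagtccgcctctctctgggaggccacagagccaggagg
Enpp6 upstream of an internal start, chr8:46986637-46986886, + strand: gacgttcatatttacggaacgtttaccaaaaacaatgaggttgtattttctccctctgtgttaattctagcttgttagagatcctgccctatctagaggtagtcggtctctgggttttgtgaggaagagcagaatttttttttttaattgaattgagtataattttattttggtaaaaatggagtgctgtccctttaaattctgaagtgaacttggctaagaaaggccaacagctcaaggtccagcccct
Cpm, chr10:117629250-117629499, + strand: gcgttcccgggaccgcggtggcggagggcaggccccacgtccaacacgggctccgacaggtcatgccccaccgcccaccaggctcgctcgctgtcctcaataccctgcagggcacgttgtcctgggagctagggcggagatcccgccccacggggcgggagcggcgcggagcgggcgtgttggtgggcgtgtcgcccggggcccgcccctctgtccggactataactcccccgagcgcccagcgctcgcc

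None of the 4 windows held CACCTG, which was found in 17.2% of the 32851 windows in the table. The core CACCT, read as AGGTG on the printed strand, was found once, 127 bases before the inner Klk6 start, and 46.0% of all windows held it. ACAAAG was found once, 193 bases before the outer Klk6 start, and 16.5% of all windows held it. The windows also differed in base composition, with 74.4% G and C for Cpm, 55.2% and 55.6% for Klk6 and 38.4% for Enpp6, against a median of 52.4% over all windows. A match of letters is a description and says nothing of binding.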

How the data were processed

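Each Affymetrix MoGene-1_0-st-v1 array (type per the file headers) held total RNA of 1 biological replicate. The log2 values per array were deposited by the authors after RMA, as the submitters' processing notes name it. Its version and the annotation and build are not given in the sources used here. Per the file headers, the authors kept a cluster in their table of 420 if its fold was at least 1.45 and its raw signal at or above the 10th percentile. That deposited table gives group means as linear intensity and as centred log2 values.

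Genes were named through the 375 table clusters with 1 symbol (369 genes, symbols updated through RefSeq names). Log2 values were fitted with limma 3.58.1 in R 4.3.3 (lmFit, eBayes, group only, two-sided) over all 35557 clusters with Benjamini-Hochberg adjustment, and the procedure was tested on simulated data. The arrays limit precision through their number, 2 per group. No detection calls were used, so whether a value lay above background was not analysed here.

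Genes described were the 5 hydrolases, Zeb2, up to 4 named genes per list by smallest p, and 3 nearest genes per hydrolase. Mog and Mag were added after their values were seen. Members and lists were chosen with earlier results of these data known. A marker that the rule takes is not reported here.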

Additional observations from a re-analysis of the deposited data

How the results depend on the processing

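The 5 hydrolases and Zeb2 kept their direction in every setting run. Across 9 other settings with all 4 arrays, Klk6, Adamts4, Cpm, Enpp6 and Zeb2 stayed past the threshold, and Cemip2 missed it only with the replicate block. Deviations of same-numbered arrays correlated at r = 0.0764 across clusters. There was no other value to set this against, so it cannot decide whether same-numbered arrays share more than a number. The replicate block gave a Cemip2 change of -1.60 (adjusted p = 0.0769) and 111 calls over all clusters (110 lower, 1 higher), against 383 without it (305 lower, 78 higher). With identical rows tested once there were 293 calls (269 lower, 24 higher), and 49 of the 78 higher calls repeated the values of another.

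More clusters passed with a filter on dim clusters (893), with an eBayes trend (603), without the 6614 lowest identifiers (818) and at an adjusted p under 0.1 (712). Leaving out 1 array gave 0 to 60 calls in limma, 0 without either control array. Those 2 fits held 2949 lower and 2611 higher clusters (without control replicate 1) and 3527 lower and 3069 higher (without control replicate 2) at an unadjusted p under 0.05. Over those 4 fits the log2 change ranged from -4.74 to -4.68 for Klk6, -4.40 to -3.80 for Adamts4, -3.81 to -3.24 for Cpm, -4.94 to -4.34 for Enpp6, -1.74 to -1.47 for Cemip2 and -1.84 to -1.66 for Zeb2. Zeb2 passed in none of them (adjusted p of 0.0628 to 0.0888). The 2 calls of Cemip2 and Zeb2 were thus lost whichever array was left out, and those of the other 4 genes only without a control array. Fewer arrays entered these fits, and a group left with 1 array was given the spread of the other. The difference between newly formed and mature enzymes ranged from 1.17 to 1.39 over them and from 1.27 to 1.28 over the other settings. The mean of a gene's clusters was not run, since each hydrolase had 1 cluster in the authors' deposited table. Whether the arrays hold other clusters of these genes was not analysed here.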
